A study of Rattus norvegicus with 40 samples.

Results

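Hypoxia alone was compared with normal right ventricle, the chamber that pumps blood through the lungs. All 12 animals titled as hypoxia or as normal were used, of 24 in the series, with 6 animals and 12 arrays for hypoxia and 6 animals and 8 arrays for normal. All were male Sprague Dawley rats. The normal rats were untreated, and the hypoxia rats breathed 10% oxygen for 4 weeks and received no drug. Ages, body weights by group, pressures and the time of day of tissue collection were not analysed here. The remaining 12 animals entered the fit for its estimate of spread and are set beside hypoxia for a few genes. They received SU5416, a blocker of VEGF receptors, at 20 mg/kg with the same hypoxia (SuHx), and 6 of them then carvedilol, an adrenergic receptor blocker, at 15 mg/kg a day. Both of these groups had time in room air after hypoxia, and none is stated for the hypoxia rats. RNA of each ventricle was measured against a reference RNA pooled from 14 rat cell lines, so that a log2 ratio of 1 is a level 2 times that of the reference. A difference is the mean log2 ratio in hypoxia minus that in normal animals.

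Low oxygen constricts the small arteries of the lung, which loads the right ventricle with pressure, and the ventricle answers with growth of its muscle cells. Cells sense oxygen through prolyl hydroxylases (Egln genes), which mark hypoxia-inducible factors for destruction by the Vhl ubiquitin ligase. Below a threshold of oxygen the factors persist and bind DNA at a short motif, ACGTG, in the promoters of genes for glycolysis, angiogenesis and mitochondrial restraint. In whole tissue, fewer cells of a type and less RNA per cell cannot be told apart.

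Hypoxia ventricles differed from normal ones mainly by lower values. Of 9775 tested genes, 1095 were lower (11.2%) and 82 higher (0.839%) at an adjusted p under 0.05, 12% in all. The median difference over all tested genes was -0.38, and 72.2% of genes had a lower mean in hypoxia. This split depended on where zero was set: with each animal centred on its median over the tested genes (called centring from here on), 385 genes were lower (3.94%) and 238 higher (2.43%), 6.37% in all, so that the higher share of calls went from 6.97% to 38.2%. Under quantile normalisation 14.5% of genes were called, 11.8% lower and 2.75% higher. With arrays scaled to equal spread (called equal spread from here on) it was 18.3%, 16.3% lower and 1.98% higher. Without normal animal 2, 772 genes were called, and without normal animal 1, 2, 5 or 6 between 49 and 51 were higher. In 548 of the called genes the groups did not overlap. Over all tested genes, called or not, 6.25% were lower and 0.726% higher without overlap. A further 27 ways of processing were run (called alternatives from here on). Only 256 genes (2.62%) kept their call and direction in every alternative that tested them, 249 of them lower and 7 higher. Genes given below with their values are of this kind unless another setting is named. A call kept everywhere has the same meaning below. Genes with empty values faced fewer alternatives: 6030 genes were tested with values in all animals and 8158 on first arrays. Counts of list members under centring, quantile normalisation or equal spread stand against the shares of all genes given here for that setting. Shares of lists were not matched for the level of their genes. Lower genes made up 3.99% in the lowest and 17.2% in the highest of 5 equal groups by mean log2 ratio in SuHx animals.

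**Figure D1:**
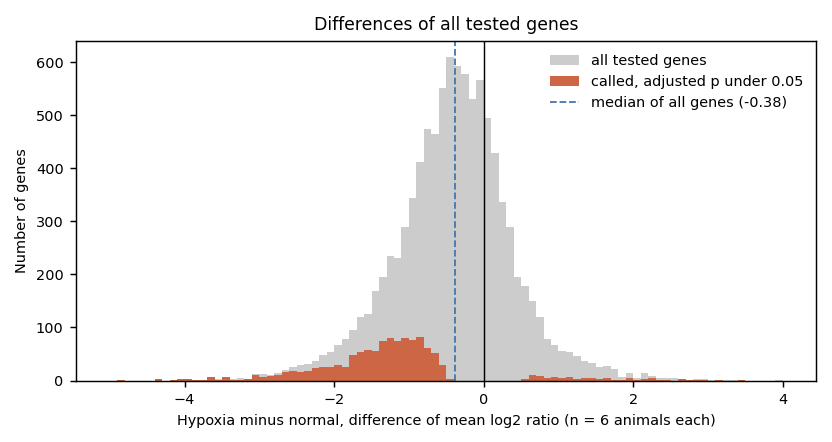
Histogram of the difference of mean log2 ratio, hypoxia minus normal (x axis), against the number of genes (y axis), for all 9775 tested genes (grey) and for the 1177 called genes (orange), with values beyond the axis drawn in the end bins. The solid line marks 0 and the dashed line the median of all genes, -0.38; most called genes lie to the left.

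The arrays of the groups differed in measures other than single genes, and the part of these in the differences below was not tested. Spots with a value averaged 33254 (SD 2949) in normal and 26035 (SD 2092) in hypoxia animals (two-sided exact permutation test, n = 6 each, adjusted p = 0.00541). The SD of the log2 ratios was 1.69 against 2.07 (exact permutation test, adjusted p = 0.00361). The mean correlation of an animal with the others of its group was 0.848 against 0.588. Animals of a group share these pairwise correlations, so no p-value is given for them. The mean correlation was 0.766 to 0.810 in SuHx animals, between these groups. With carvedilol it was 0.630 to 0.702, overlapping the 0.554 to 0.637 of hypoxia animals. The median SD of a gene between animals was 0.42 in normal and 0.82 in hypoxia animals. With the pair of hypoxia arrays that held the fewest values left out, 1044 genes were lower (10.9%) and 124 higher (1.3%), 12.2% of those tested. The labels name no slide or scan, but the labels' animal numbers of hypoxia animals 5 and 6 were over 100, and without these 2 animals 1002 genes were lower and 64 higher.

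Among the 82 higher genes, 7 kept their call everywhere. The largest after Scyl2, a pseudokinase of vesicle coats, was Gabrp, the pi subunit of GABA-A receptors. Gabrp lay between -3.20 and -2.08 in normal animals (median -2.69) and between -2.53 and 0.51 in hypoxia animals (median -0.30), a difference of 1.96 (SE 0.53, adjusted p = 0.0194), with 1 hypoxia animal inside the normal range. Cnpy2, a protein of the endoplasmic reticulum, had log2 ratios of -2.10 to -0.40 (median -0.91) in normal and of -0.25 to 1.03 (median 0.59) in hypoxia animals, a difference of 1.60 (SE 0.39, adjusted p = 0.00992) with no overlap. The adaptor Nck1, which links receptor tyrosine kinases to actin, had the lowest adjusted p of the rises. Nck1 spanned 1.13 to 1.57 (median 1.30) in hypoxia animals against -0.17 to 0.56 (median 0.37) in normal animals, a difference of 1.01 (SE 0.16, adjusted p = 0.00035), and the groups did not overlap. Cebpd, a transcription factor induced by cytokines and glucocorticoids, lay between -1.31 and -0.51 in normal animals (median -0.93) and between -0.53 and 0.69 in hypoxia animals (median 0.16), with a difference of 1.04 (SE 0.25, adjusted p = 0.00917) and 1 hypoxia animal inside the normal range. Taf9, a subunit of the general factor TFIID, had log2 ratios of -1.70 to -0.91 (median -1.30) in normal and of -0.76 to -0.19 (median -0.58) in hypoxia animals, a difference of 0.78 (SE 0.19, adjusted p = 0.00988). Selenow, a small muscle selenoprotein, spanned 0.99 to 1.31 (median 1.14) in hypoxia animals against 0.26 to 0.66 (median 0.46) in normal animals, a difference of 0.67 (SE 0.18, adjusted p = 0.0162). Neither gene overlapped between the groups.

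Genes of prostaglandin and inflammatory signalling were found on both sides. In prostanoid and leukotriene synthesis 3 of 25 tested members fell and 2 rose (20% called, median difference -0.37). Centring left 3 lower and 3 higher, and 3 were called without normal animal 6. Members called were 6 lower and 4 higher at equal spread and 3 lower and 4 higher under quantile normalisation (median -0.21). The higher members were the inducible cyclooxygenase Ptgs2 and the prostaglandin E synthase that acts after it, Ptges. Ptges lay between -3.23 and -0.85 in normal animals (median -1.36) and between -0.72 and 0.77 in hypoxia animals (median 0.07), with no overlap and a difference of 1.68 (SE 0.47, adjusted p = 0.0219), but this call was lost without normal animal 6, without hypoxia animals 5 and 6 and with animal weights. The phospholipase Pla2g5, which releases arachidonate from membranes, had log2 ratios of 3.73 to 6.31 (median 4.21) in normal and of -0.61 to 2.61 (median 1.69) in hypoxia animals, a difference of -3.09 (SE 0.52, adjusted p = 0.000658). The other prostaglandin E synthase, Ptges2, spanned -2.60 to 0.05 (median -0.78, 5 animals) in hypoxia animals against 0.22 to 1.95 (median 1.54) in normal animals, also without overlap, a difference of -2.45 (SE 0.45, adjusted p = 0.00136). The epoxide hydrolase Ephx1 differed by -2.98 (SE 0.60, adjusted p = 0.00279).

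In the list of chemokines, interleukins and their receptors 3 of 88 tested members fell and 2 rose (5.68% called, median difference -0.26, but 0.05 after centring). With centred animals 2 fell and 4 rose. Calls numbered 7 lower and 8 higher at equal spread and 5 lower and 10 higher under quantile normalisation (median -0.17). Ccl11, the eosinophil attractant eotaxin, lay between -2.64 and -0.06 in normal animals (median -0.63) and between 0.18 and 1.53 in hypoxia animals (median 1.02), a difference of 1.90 (SE 0.49, adjusted p = 0.0163) with no overlap that was lost without hypoxia animals 5 and 6 and with animal weights. Il1r2, the decoy receptor of interleukin 1, rose by 1.52 (SE 0.44, adjusted p = 0.0269), a call lost in 8 of the 27 alternatives (among them without normal animal 1 or 6 or hypoxia animal 1 or 5). Ltbr, the lymphotoxin receptor, fell by 1.26 (SE 0.22, adjusted p = 0.000966) without overlap. In Toll-like, NOD-like and NF-kappaB signalling 7 of 46 tested members fell and 2 rose (19.6% called, median difference -0.23, but 0.07 after centring). 3 fell and 2 rose once animals were centred. The inflammasome sensor Nlrp3 and the NF-kappaB cofactor Nfkbiz rose. Traf6, the ubiquitin ligase that carries the signal of Toll-like and interleukin 1 receptors, had log2 ratios of -0.65 to 0.33 (median -0.14) in normal and of -3.19 to -2.01 (median -2.50, 4 animals) in hypoxia animals, a difference of -2.38 (SE 0.56, adjusted p = 0.00874). The mitochondrial brake Nlrx1 differed by -2.33 (SE 0.51, adjusted p = 0.00503), lost when only the hypoxia and normal animals were fitted and at -1.31 without hypoxia animals 5 and 6, and Traf2 by -0.96 (SE 0.23, adjusted p = 0.00874), lost after centring.

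**Figure D2:**
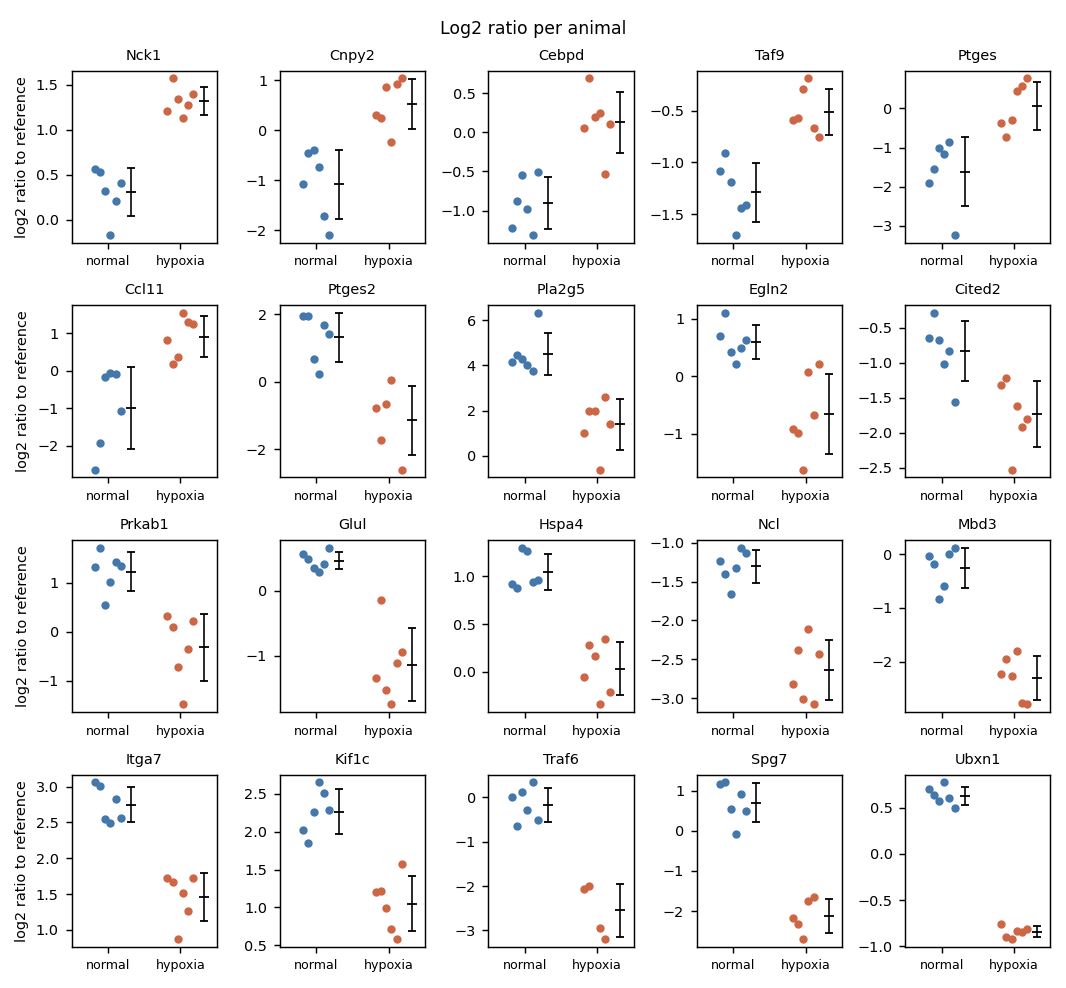
Log2 ratio to the reference RNA (y axes) of 20 genes in each normal (blue) and hypoxia (orange) animal, with the mean and SD of each group beside the points. Nck1, Taf9, Ptges and Ccl11 lie higher in every hypoxia animal with a value than in any normal one, and Mbd3, Spg7 and Ubxn1 lower.

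Genes of the oxygen-sensing pathway did not move as a block. Of this list 4 of 34 tested members fell and 1 rose (14.7% called, median difference -0.19, but 0.10 after centring, 0.16 under quantile normalisation and 0.02 at equal spread). Centred values gave 1 lower and 2 higher, and 3 were called without normal animal 2. Egln2, one of the prolyl hydroxylases, lay between 0.22 and 1.10 in normal animals (median 0.57) and between -1.62 and 0.22 in hypoxia animals (median -0.80), a difference of -1.25 (SE 0.24, adjusted p = 0.00207), with the groups touching at 0.22. Cited2, an inhibitor that hypoxia-inducible factors themselves induce, spanned -2.53 to -1.22 (median -1.71) in hypoxia animals against -1.56 to -0.29 (median -0.75) in normal animals, a difference of -0.90 (SE 0.23, adjusted p = 0.0136). That call was lost under quantile normalisation (-0.55), at equal spread and after centring. Insig2, a retention protein of sterol sensing that hypoxia can induce, differed by -1.45 (SE 0.39, adjusted p = 0.0195), lost in 6 of the 27 alternatives (among them without normal animal 2) and at -0.44 with the probe of highest ratio, and Ddit4, an inducible brake on mTOR, was also called lower. Vhl had log2 ratios of -1.44 to 0.04 (median -0.56) in normal and of -0.22 to 0.98 (median 0.43) in hypoxia animals, a difference of 1.06 (SE 0.28, adjusted p = 0.0169), but it was 0.09 with the pair of least filled hypoxia arrays left out. Chosen after their values were seen, for their textbook role, Hif1a differed by 0.12 (SE 0.26, adjusted p = 0.81), Epas1 by -1.95 (SE 0.72, adjusted p = 0.0811), the growth factor Vegfa by -1.0 (SE 0.44, adjusted p = 0.143), the glucose transporter Slc2a1 by -0.45 (SE 0.15, adjusted p = 0.056) and Ldha, which makes lactate, by -0.79 (SE 0.27, adjusted p = 0.0563), none of them called.

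Promoters of 2 called members of this list are shown because both hold the binding core of hypoxia-inducible factors while the genes were lower. Of the 5 called members, Ddit4 held a core too, and Egln2 and Vhl held none. They are the 250 bases before the gene start in RefSeq (GRCr8 build), 5′ to 3′, with each ACGTG on either strand in capitals: Cited2 at chr1:14132053-14132302 on the + strand, where 2 cores overlap as the palindrome CACGTG, and Insig2 at chr13:35040099-35040348 on the - strand.
Cited2: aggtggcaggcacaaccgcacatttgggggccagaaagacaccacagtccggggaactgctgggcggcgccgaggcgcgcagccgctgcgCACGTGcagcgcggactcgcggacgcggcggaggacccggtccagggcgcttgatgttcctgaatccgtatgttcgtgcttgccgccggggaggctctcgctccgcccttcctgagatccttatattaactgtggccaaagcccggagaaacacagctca
Insig2: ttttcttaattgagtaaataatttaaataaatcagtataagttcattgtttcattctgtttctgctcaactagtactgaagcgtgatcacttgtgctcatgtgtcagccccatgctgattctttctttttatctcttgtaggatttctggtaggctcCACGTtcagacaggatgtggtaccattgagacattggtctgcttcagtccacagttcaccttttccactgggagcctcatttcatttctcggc
On either strand, ACGTG was found in 53.8% of the promoters of tested list members (14 of 26 with a promoter), in 22.3% of those of all 8093 tested genes with a promoter and in 16.6% of all 33469 promoters. Among called genes it was found in 23.9% of the lower (220 of 921) and 32.3% of the higher ones (21 of 65). CACGTG, which contains the shorter motif, was found in 8.2% of promoters of tested genes, 9.34% of those of lower and 6.15% of those of higher genes.

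Among lists of energy metabolism, the shares called of glycolysis, glucose entry and the respiratory chain lay near the 12% of all genes, and larger shares were called in several others. Of genes that buffer ATP or sense its loss (creatine kinases, adenylate kinases and AMP-activated kinase), 6 of 20 tested members fell and none rose (30% called, median difference -0.71). After centring 4 fell and 2 rose. Calls numbered 6 lower and 2 higher under quantile normalisation. Prkab1, the beta1 subunit of AMP-activated kinase, lay between 0.55 and 1.72 in normal animals (median 1.34) and between -1.48 and 0.33 in hypoxia animals (median -0.12), a difference of -1.55 (SE 0.30, adjusted p = 0.00183). Its gamma1 subunit Prkag1 fell by 1.07 (SE 0.23, adjusted p = 0.00417) with overlap, and the creatine transporter Slc6a8 spanned -0.35 to 0.80 (median 0.23) in hypoxia animals against 0.98 to 1.64 (median 1.22) in normal animals, a difference of -1.08 (SE 0.23, adjusted p = 0.00396). Stk11, the kinase that activates AMP-activated kinase, fell by 1.99 (SE 0.38, adjusted p = 0.00164), a call lost with values in 2 animals per group (-1.09). Prkaa2, its alpha2 subunit, and Ak3 were also lower.

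In amino acid metabolism 9 of 40 tested members fell and none rose (22.5% called, median difference -0.43). Centring left 2 lower and none higher. Glul, which makes glutamine, had log2 ratios of 0.29 to 0.66 (median 0.45) in normal and of -1.74 to -0.15 (median -1.22) in hypoxia animals, a difference of -1.59 (SE 0.25, adjusted p = 0.000462). Got1, the cytosolic aspartate aminotransferase of the malate-aspartate shuttle, lay between 1.45 and 3.08 in normal animals (median 2.53) and between -1.99 and 0.77 in hypoxia animals (median 0.29), a difference of -2.43 (SE 0.44, adjusted p = 0.00129). The groups did not overlap in either gene. The other lower members were Phgdh, which opens serine synthesis, the branched-chain enzymes Bckdha, Bckdk and Ivd, both propionyl-CoA carboxylase subunits Pcca and Pccb, and Ass1. In NAD metabolism 3 of 19 tested members fell and none rose (15.8% called, median difference -0.48). With centred animals 2 fell and 1 rose. Members called were 7 lower and 1 higher at equal spread and 4 lower and 1 higher under quantile normalisation. Nmnat1, which makes NAD in the nucleus, differed by -4.83 (SE 0.93, adjusted p = 0.00207), the deacetylase Sirt2 differed by -1.43 (SE 0.35, adjusted p = 0.0101), and Parp1, which uses NAD at DNA breaks, was lower.

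For glucose entry 3 of 22 tested members fell and none rose (13.6% called, median difference -0.42). 1 fell and none rose once animals were centred, and 1 was called without normal animal 2 or 6 or hypoxia animal 4. Calls numbered 5 lower and none higher at equal spread. Hk1, a hexokinase, fell by 2.46 (SE 0.33, adjusted p = 8.8e-05). The other lower members were the transporter Slc2a8 and Pgm1, which leads glucose to glycogen. Of glycolysis genes 3 of 25 tested members fell and none rose (12% called, median difference -0.47). Centred values gave 2 lower and 1 higher, and 6 were called without normal animal 3. The count was 5 lower and none higher at equal spread. In the citric acid cycle 6 of 34 tested members fell and 1 rose (20.6% called, median difference -0.48). After centring 1 fell and 2 rose. Members called were 14 lower and 1 higher at equal spread (median -0.89). Pc, pyruvate carboxylase, differed by -1.27 (SE 0.23, adjusted p = 0.00124), and Pdk3, a kinase that closes pyruvate dehydrogenase, rose by 1.47 (SE 0.36, adjusted p = 0.0108), the rise being lost without hypoxia animals 5 and 6 and 2.21 under quantile normalisation. Of fatty acid oxidation genes 7 of 36 tested members fell and 1 rose (22.2% called, median difference -0.49). Centring left 3 lower and 1 higher, and 5 were called without normal animal 2. Calls numbered 18 lower and none higher at equal spread (median -0.88) and 12 lower and none higher under quantile normalisation. Cpt1b, the muscle carnitine palmitoyltransferase, was among the lower members, but differed by 0.76 when its probe with the highest ratio was used in place of the mean over probes. Acadm was the higher member. Of the respiratory chain and ATP synthase 12 of 91 tested members fell and 1 rose (14.3% called, median difference -0.31). With centred animals 1 fell and 6 rose, and 5 to 8 were called without normal animal 1, 2, 5 or 6 or hypoxia animal 2 or 5. The count was 44 lower and none higher at equal spread (median -0.76). Ndufv1, the NADH-binding subunit of complex I, fell by 1.37 (SE 0.27, adjusted p = 0.00251).

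In lipid storage and peroxisomes, larger shares were lower than the 11.2% of all genes. Of triglyceride and phospholipid genes 8 of 44 tested members fell and none rose (18.2% called, median difference -0.65). 3 fell and none rose once animals were centred, and 5 were called without normal animal 2 or 5. Members called were 13 lower and none higher at equal spread and 10 lower and 2 higher under quantile normalisation. Gpam, which starts glycerolipid synthesis, differed by -2.07 (SE 0.46, adjusted p = 0.00592), and Pnpla2, the lipase of lipid droplets, by -1.66 (SE 0.39, adjusted p = 0.00836), each with some overlap. Fitm2, Cds1, Agpat3, Mgll, Pcyt2 and Acsl1 were the other lower members. Among peroxisomal genes 6 of 26 tested members fell and none rose (23.1% called, median difference -0.39). Centred values gave 3 lower and none higher. Pex14, a docking protein of the import pore, lay between 0.78 and 1.55 in normal animals (median 1.31) and between -0.27 and 0.30 in hypoxia animals (median 0.08), a difference of -1.21 (SE 0.19, adjusted p = 0.000372). Acaa1a, the thiolase of peroxisomal oxidation, spanned -0.59 to -0.15 (median -0.35) in hypoxia animals against 0.29 to 0.81 (median 0.63) in normal animals, a difference of -0.98 (SE 0.18, adjusted p = 0.00125). Both were without overlap, and the import ATPase Pex6 fell by 1.69 (SE 0.38, adjusted p = 0.00599). In cholesterol synthesis 6 of 27 tested members fell and none rose (22.2% called, median difference -0.31). After centring 1 fell and none rose, and 2 to 3 were called without normal animal 2 or 6 or hypoxia animal 1. The count was 2 lower and 1 higher at equal spread (median -0.07) and 2 lower and 3 higher under quantile normalisation (median -0.03). No member of this list kept its call everywhere.

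Among lists of protein folding and synthesis, several had larger shares called than the 12% of all genes. Few calls were in the ribosome itself. After centring, 6.37% of all genes were called. Median differences of translation factors, tRNA synthetases and ribosome biogenesis lay -0.09, -0.03 and -0.05 from the median of all genes. With only the 2 groups fitted, 8, 3 and 3 members of these lists were called, against 6.69% of all genes. Of heat shock proteins and chaperonins 16 of 77 tested members fell and 1 rose (22.1% called, median difference -0.52). Centring left 9 lower and 2 higher. Hspa4, a nucleotide exchange factor of the HSP70 system, had log2 ratios of 0.88 to 1.30 (median 0.95) in normal and of -0.34 to 0.35 (median 0.06) in hypoxia animals, a difference of -1.01 (SE 0.17, adjusted p = 0.000658). Hspd1, the mitochondrial chaperonin, spanned -1.70 to -1.02 (median -1.31) in hypoxia animals against -0.63 to 0.43 (median 0.08) in normal animals, a difference of -1.29 (SE 0.23, adjusted p = 0.00118). Neither gene overlapped between the groups. Bag6 differed by -0.95 (SE 0.17, adjusted p = 0.00137) and Cdc37, which brings kinases to HSP90, by -1.57 (SE 0.32, adjusted p = 0.00277). Hsp90ab1, Hspa5, Hspa8 and Bag3 were also lower and the small muscle protein Hspb3 was higher.

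Of translation factors 14 of 60 tested members fell and none rose (23.3% called, median difference -0.47). With centred animals 3 fell and none rose, and 8 to 9 were called without normal animal 1 or 2. Eef2k, the kinase that slows elongation, lay between 0.10 and 0.45 in normal animals (median 0.32) and between -2.0 and -0.63 in hypoxia animals (median -1.44), a difference of -1.72 (SE 0.25, adjusted p = 0.000164) with no overlap. Eif4b, a helper of the cap-bound helicase, fell by 1.53 (SE 0.31, adjusted p = 0.00292). Of tRNA synthetases 7 of 31 tested members fell and none rose (22.6% called, median difference -0.41). 2 fell and none rose once animals were centred. Hars1, Iars1, Qars1, Farsa, Gars1 and Sars2, which charge tRNAs, and the scaffold Aimp2 were the lower members, none kept in every alternative. In ribosome biogenesis 13 of 65 tested members fell and none rose (20% called, median difference -0.43). Centred values gave 3 lower and 1 higher, and 8 were called without normal animal 2. Members called were 9 lower and 2 higher under quantile normalisation. Ncl, the main nucleolar protein nucleolin, had log2 ratios of -1.66 to -1.07 (median -1.28) in normal and of -3.08 to -2.11 (median -2.62) in hypoxia animals, a difference of -1.33 (SE 0.20, adjusted p = 0.000218) that was -0.86 under quantile normalisation. Rrs1, which assembles the large subunit, differed by -2.28 (SE 0.42, adjusted p = 0.00149) and Gnl3l by -2.49 (SE 0.46, adjusted p = 0.00144). Of cytosolic ribosomal proteins 1 of 76 tested members fell and 2 rose (3.95% called, median difference 0.02). After centring none fell and 5 rose. Calls numbered none lower and 5 higher at equal spread (median 0.16) and none lower and 6 higher under quantile normalisation (median 0.20). The higher members were Rps25 and Rpl23a, and Rpl18 was lower, although genes of this family have many near-identical copies, so that single members are uncertain. Of mitochondrial ribosomal proteins 3 of 67 tested members fell and none rose (4.48% called, median difference -0.14, but 0.16 after centring). Centring left 2 lower and 8 higher, and 5 were called without hypoxia animal 3. The count was 9 lower and none higher at equal spread (median -0.31) and 7 lower and none higher under quantile normalisation (median -0.26). Mrpl2 fell by 3.47 (SE 0.59, adjusted p = 0.00074).

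**Figure D3:**
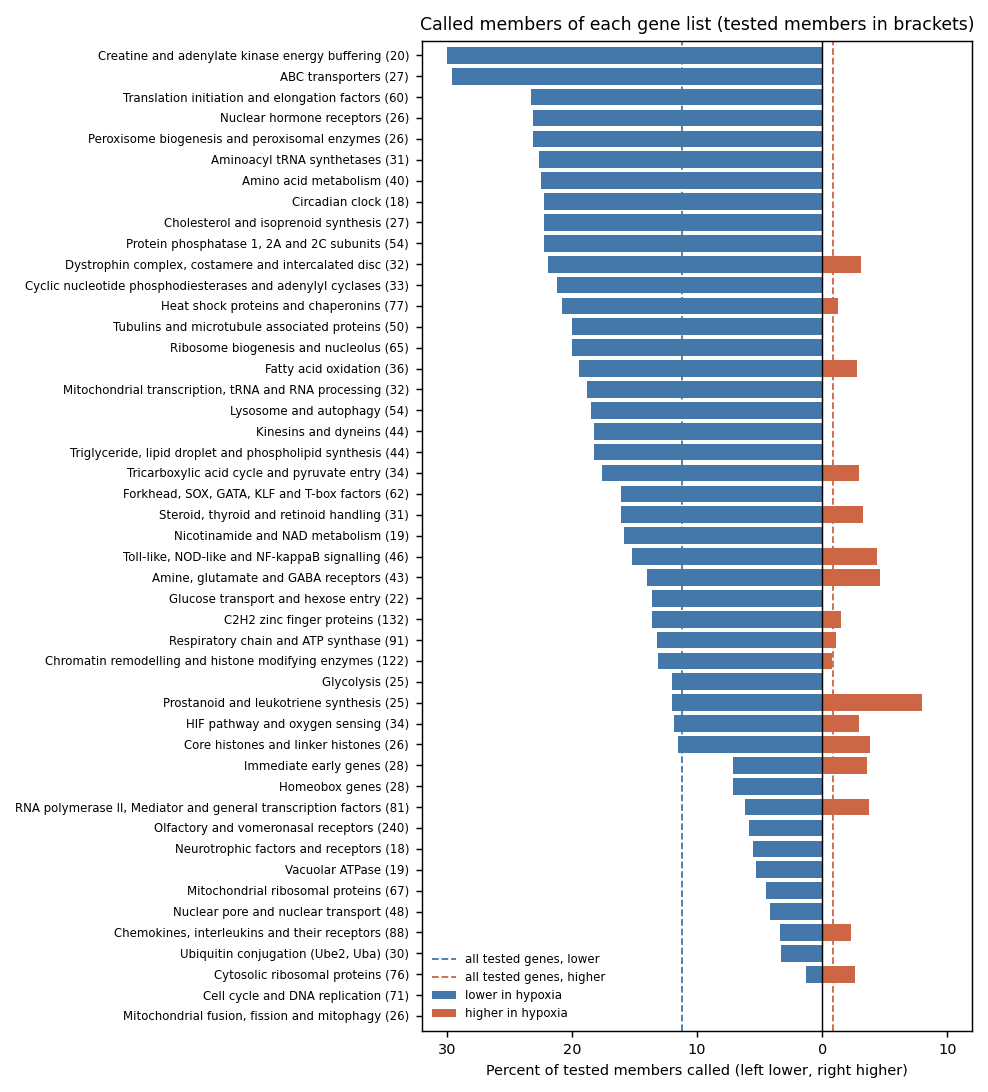
Percent of tested members called lower (blue, to the left) and higher (orange, to the right) in hypoxia for each described list of pathways and families (marker lists are not drawn), with the number of tested members in brackets. Dashed lines mark the shares over all tested genes, 11.2% lower and 0.839% higher; energy buffering and ABC transporters stand farthest left, and cell cycle genes and mitochondrial fusion genes have no bar.

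Among genes of transcription, 13.1% of chromatin enzymes and 13.6% of C2H2 zinc finger proteins fell, near the 11.2% of all genes. Of chromatin enzymes 16 of 122 tested members fell and 1 rose (13.9% called, median difference -0.41). With centred animals 7 fell and 4 rose. Mbd3, a subunit of the NuRD deacetylase complex, lay between -0.84 and 0.11 in normal animals (median -0.12) and between -2.79 and -1.80 in hypoxia animals (median -2.25), with no overlap and a difference of -2.04 (SE 0.21, adjusted p = 3.83e-06). Prmt1, the main arginine methyltransferase, spanned -1.28 to -0.51 (median -1.12) in hypoxia animals against -0.12 to 0.49 (median -0.04) in normal animals, a difference of -1.09 (SE 0.17, adjusted p = 0.000381). Ing1 differed by -1.31 (SE 0.25, adjusted p = 0.00215) and the histone methyltransferase Ehmt2 by -1.56 (SE 0.33, adjusted p = 0.00448). Smarca4, the motor of BAF remodellers, Hdac3 and Hdac5 were also lower, and Suv39h2, a histone H3 methyltransferase, was higher. Of histones and HMGN proteins 3 of 26 tested members fell and 1 rose (15.4% called, median difference -0.06, but 0.23 after centring, 0.16 under quantile normalisation and 0.11 at equal spread). 1 fell and 2 rose once animals were centred. Hmgn5b fell by 2.56 (SE 0.53, adjusted p = 0.00347), and Hmgn3 was higher.

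Of RNA polymerase II, Mediator and general factors 5 of 81 tested members fell and 3 rose (9.88% called, median difference -0.22, but 0.08 after centring). Centred values gave 1 lower and 10 higher, and 4 to 5 were called without normal animal 1, 2, 5 or 6. The count was 8 lower and 4 higher at equal spread. Beside Taf9, the higher members were Taf1d and Gtf2ird2. Med16 of the Mediator tail fell by 1.29 (SE 0.21, adjusted p = 0.00051). Of C2H2 zinc finger proteins 18 of 132 tested members fell and 2 rose (15.2% called, median difference -0.51). After centring 9 fell and 3 rose. Zfp362 differed by -4.08 (SE 0.82, adjusted p = 0.00341) with overlap, Zfp691 by -2.22 (SE 0.44, adjusted p = 0.00269), Zfp106, which is needed by motor neurons and muscle in mice, by -1.75 (SE 0.35, adjusted p = 0.0026), and Zbtb17, the partner of MYC known as MIZ1, by -1.03 (SE 0.17, adjusted p = 0.000577). Of forkhead, SOX, GATA, KLF and T-box factors 10 of 62 tested members fell and none rose (16.1% called, median difference -0.55). Centring left 1 lower and 1 higher, and 3 to 6 were called without normal animal 1 to 6 in turn or hypoxia animal 5 or 6. Sox9, a factor of valve and cartilage cells, lay between 0.41 and 2.43 in normal animals (median 1.0) and between -0.93 and 0.06 in hypoxia animals (median -0.28), a difference of -1.67 (SE 0.36, adjusted p = 0.00478) with no overlap. The heart factors Gata4, Gata6, Mef2a and Myocd and the flow-induced Klf2 were lower too, with calls that other settings ended. Among homeobox genes 2 of 28 tested members fell and none rose (7.14% called, median difference -0.38). With centred animals 1 fell and none rose, and 1 was called without normal animal 1 to 6 in turn or hypoxia animal 2, 3 or 4. The count was 4 lower and none higher at equal spread. Dlx1, best known from forebrain neurons, had log2 ratios of 1.43 to 3.09 (median 2.71) in normal and of -1.21 to 0.90 (median -0.75) in hypoxia animals, a difference of -3.01 (SE 0.42, adjusted p = 0.000117). Of nuclear receptors 6 of 26 tested members fell and none rose (23.1% called, median difference -0.52). 2 fell and none rose once animals were centred, and 2 to 3 were called without normal animal 1, 2, 5 or 6. The orphan receptor Nr2f6 spanned -0.72 to 0.01 (median -0.46) in hypoxia animals against 0.12 to 0.68 (median 0.51) in normal animals, a difference of -0.88 (SE 0.17, adjusted p = 0.00201) that was -0.58 after centring, and the thyroid hormone receptor Thra was lower. Of immediate early genes 2 of 28 tested members fell and 1 rose (10.7% called, median difference -0.26, but 0.04 after centring, 0.22 under quantile normalisation and 0.06 at equal spread). Centred values gave 1 lower and 2 higher. Calls numbered 2 lower and 3 higher at equal spread and 1 lower and 4 higher under quantile normalisation. Cebpd rose, and Klf2 and the MAP kinase phosphatase Dusp1 were lower.

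Clock genes were lower only in part. Of the list 4 of 18 tested members fell and none rose (22.2% called, median difference -0.62). No member was called after centring, and 2 were called without normal animal 6. The count was 7 lower and none higher at equal spread. Per2, one of the period genes that close the daily feedback loop, lay between 0.86 and 1.96 in normal animals (median 1.22) and between -0.19 and 0.99 in hypoxia animals (median 0.42), a difference of -0.86 (SE 0.24, adjusted p = 0.0211). Nr1d1, which encodes the repressor REV-ERBalpha, had log2 ratios of 0.44 to 1.62 (median 1.28) in normal and of -2.45 to 0.72 (median 0.29, 5 animals) in hypoxia animals, a difference of -1.35 (SE 0.42, adjusted p = 0.0404). Per1 differed by -1.38 (SE 0.40, adjusted p = 0.0275) and the kinase Csnk1d by -1.47 (SE 0.37, adjusted p = 0.012). The groups overlapped in each of these 4 genes, and after centring none of them was called. The call of Per2 was lost in 6 of the 27 alternatives (among them without normal animal 4), that of Nr1d1 lost in 12 of the 27 alternatives (among them without normal animal 1, 2, 5 or 6 or hypoxia animal 3 or 6), that of Per1 lost in 11 of the 27 alternatives (among them without normal animal 3 or 6 or hypoxia animal 1) and that of Csnk1d lost in 6 of the 27 alternatives. With the pair of least filled hypoxia arrays left out, Per2 differed by -0.51 and Nr1d1 by -0.87, and Nr1d1 by -0.80 without hypoxia animal 3. Per1 was -0.80 with values in 2 animals per group, and Csnk1d -0.86 with the probe of highest ratio. No source used here gives the hour of tissue collection, and its part was not tested. Promoters of Per2 (chr9:99496994-99497243, - strand) and Nr1d1 (chr10:84231813-84232062, - strand) are shown since clock factors and hypoxia-inducible factors read overlapping motifs, with ACGTG on either strand in capitals, again as the 250 bases before the start in RefSeq (GRCr8).
Per2: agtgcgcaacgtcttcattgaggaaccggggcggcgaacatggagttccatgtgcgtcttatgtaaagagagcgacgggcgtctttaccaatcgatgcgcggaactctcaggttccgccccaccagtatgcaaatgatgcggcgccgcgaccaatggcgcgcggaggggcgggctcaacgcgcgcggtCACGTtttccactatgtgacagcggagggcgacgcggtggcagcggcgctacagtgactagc
Nr1d1: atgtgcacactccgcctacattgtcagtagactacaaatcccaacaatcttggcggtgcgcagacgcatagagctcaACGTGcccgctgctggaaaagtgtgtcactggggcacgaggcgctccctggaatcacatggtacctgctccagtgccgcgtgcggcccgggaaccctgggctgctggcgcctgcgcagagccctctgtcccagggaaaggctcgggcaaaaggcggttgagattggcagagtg
Each holds 1 such core and no CACGTG in this window. The promoter of Per1, also called lower, held neither motif. Of 16 tested clock genes with a promoter, 7 held ACGTG (43.8%) and 2 held CACGTG (12.5%).

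Genes that link muscle cells to matrix and to each other were among the lower ones. Of the dystrophin complex, costamere and intercalated disc 7 of 32 tested members fell and 1 rose (25% called, median difference -0.56). Centring left 3 lower and 1 higher, and 5 were called without normal animal 2 or hypoxia animal 6. Members called were 12 lower and none higher at equal spread (median -0.86). Itga7, the laminin receptor of muscle, lay between 2.49 and 3.06 in normal animals (median 2.70) and between 0.87 and 1.72 in hypoxia animals (median 1.59), a difference of -1.29 (SE 0.19, adjusted p = 0.000236) that was -0.72 with the probe of highest ratio. Itgb1, the beta1 integrin that pairs with it, spanned -1.98 to -0.66 (median -1.06) in hypoxia animals against -0.18 to 0.63 (median 0.26) in normal animals, a difference of -1.35 (SE 0.26, adjusted p = 0.00207). Jup, plakoglobin of the desmosome, fell by 0.96 (SE 0.19, adjusted p = 0.00269). No overlap was seen in these 3 genes. Plec, Dmd, Vcl and the gap junction gene Gja1 were lower as well. Of tubulins and their partners 10 of 50 tested members fell and none rose (20% called, median difference -0.60). With centred animals 1 fell and none rose, and 6 were called without normal animal 2. Tubb4b fell by 1.20 (SE 0.24, adjusted p = 0.00235), and Tubb2b, Tubb5, Tuba1c and Tuba3a were lower, a family of similar sequences in which single probes are uncertain. Of kinesins and dyneins 8 of 44 tested members fell and none rose (18.2% called, median difference -0.62). 5 fell and 1 rose once animals were centred. The vesicle motor Kif1c had log2 ratios of 1.84 to 2.65 (median 2.28) in normal and of 0.58 to 1.57 (median 1.10) in hypoxia animals, a difference of -1.22 (SE 0.20, adjusted p = 0.000577), and Dctn1, the dynactin subunit that holds dynein to its track, fell by 1.27 (SE 0.25, adjusted p = 0.00218). The dynein heavy chain Dync1h1 and kinesin-1 members Kif5a, Kif5b, Klc1 and Klc4 were also lower.

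Among genes of cyclic nucleotide turnover and anchoring, and of protein phosphatase subunits, some members were lower. Of phosphodiesterases, adenylyl cyclases and their anchors 7 of 33 tested members fell and none rose (21.2% called, median difference -0.72). Centred values gave 1 lower and none higher, and 3 to 4 were called without normal animal 2, 4, 5 or 6 or hypoxia animal 5. Members called were 11 lower and none higher at equal spread. Akap17a fell by 1.01 (SE 0.16, adjusted p = 0.000547). Adcy6, a main adenylyl cyclase of heart muscle, differed by -0.78 (SE 0.21, adjusted p = 0.0206), a call lost in 5 of the 27 alternatives (among them without normal animal 2) and at 0.00 with values in 2 animals per group. The anchors Akap1, Akap6 and Akap8, as well as Akap8l and the phosphodiesterase Pde9a, were also lower. Of protein phosphatase subunits 12 of 54 tested members fell and none rose (22.2% called, median difference -0.71). After centring 3 fell and none rose, and 7 were called without normal animal 1, 2, 4, 5 or 6 or hypoxia animal 5. Ppp6r2, a regulatory subunit of phosphatase 6, lay between 0.70 and 1.19 in normal animals (median 1.01) and between -1.47 and 0.09 in hypoxia animals (median -0.28), a difference of -1.33 (SE 0.21, adjusted p = 0.000381), and Ppm1j fell by 1.38 (SE 0.32, adjusted p = 0.00723). Of amine, glutamate and GABA receptors 6 of 43 tested members fell and 2 rose (18.6% called, median difference -0.51). Centring left 1 lower and 2 higher. Beside Gabrp, the AMPA receptor gene Gria2 was higher. The muscarinic receptor Chrm3 differed by -3.41 (SE 0.81, adjusted p = 0.00877), a call lost on first arrays (-1.93), and Adrb1, Adra1b, Drd2, Gria3 and Grina were lower. Of steroid, thyroid and retinoid handling 5 of 31 tested members fell and 1 rose (19.4% called, median difference -0.39). With centred animals 1 fell and 1 rose, and 1 to 3 were called without normal animal 1, 2, 3, 5 or 6 or hypoxia animal 1. Sgk1, a kinase induced by corticosteroids, was the higher member, with 1.38 (SE 0.41, adjusted p = 0.0287) and a call lost in 7 of the 27 alternatives (among them without normal animal 1, 2, 5 or 6 or hypoxia animal 1 or 4), at 0.75 on first arrays.

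ABC transporters and lysosomal genes were among the lower ones, and no member of the list of mitochondrial fusion, fission and mitophagy was called. Of ABC transporters 8 of 27 tested members fell and none rose (29.6% called, median difference -0.60). 2 fell and none rose once animals were centred, and 4 to 5 were called without normal animal 1, 2, 4, 5 or 6 or hypoxia animal 4. Abcb8, of the inner mitochondrial membrane, lay between 0.17 and 2.01 in normal animals (median 0.77) and between -5.64 and -0.48 in hypoxia animals (median -2.22, 4 animals), a difference of -3.55 (SE 0.78, adjusted p = 0.00571). Abca8a, a lipid exporter, spanned 1.14 to 2.49 (median 1.72) in hypoxia animals against 3.47 to 4.91 (median 3.76) in normal animals, a difference of -2.14 (SE 0.43, adjusted p = 0.00269). Neither overlapped between groups. Of the lysosome and autophagy 10 of 54 tested members fell and none rose (18.5% called, median difference -0.57). Centred values gave 5 lower and 1 higher. Psap, the precursor of saposins, had log2 ratios of 0.48 to 1.04 (median 0.62) in normal and of -1.98 to -0.17 (median -1.11) in hypoxia animals, a difference of -1.77 (SE 0.31, adjusted p = 0.000874), and Optn, a receptor for mitophagy, lay between 2.09 and 2.55 in normal animals (median 2.35) and between 0.23 and 1.12 in hypoxia animals (median 0.84), a difference of -1.61 (SE 0.32, adjusted p = 0.00281). Neu1, the lysosomal sialidase, fell by 1.05 (SE 0.23, adjusted p = 0.00543). The lysosomal mannosidase Man2b1 and the hexosaminidase subunit Hexa were lower too. Of vacuolar ATPase subunits 1 of 19 tested members fell and none rose (5.26% called, median difference -0.43). After centring none fell and 2 rose, and 2 were called without hypoxia animal 4 or 6. Members called were 2 lower and none higher at equal spread. Of mitochondrial transcription and RNA processing 6 of 32 tested members fell and none rose (18.8% called, median difference -0.45). With centred animals no member was called, and 3 were called without normal animal 1. The DNA helicase Twnk, the RNA polymerase Polrmt, the tRNA enzymes Elac2 and Trmu and the elongation factor Tufm were lower there, none kept everywhere. For mitochondrial fusion, fission and mitophagy none of 26 tested members fell and none rose (0% called, median difference -0.38), with 4 lower and 0 higher at an unadjusted p under 0.05 in the same limma fit. With centred animals none fell and 1 rose, and 1 to 2 were called without normal animal 4 or hypoxia animal 2, 3, 4 or 6. The count was 4 lower and none higher at equal spread and 3 lower and none higher under quantile normalisation. Closest to the threshold were the fusion GTPase Opa1 at -1.23 (SE 0.42, adjusted p = 0.0576) and the motor adaptor Trak2 at -0.80 (SE 0.27, adjusted p = 0.0577). With the probe of highest ratio they were -0.44 and -0.21. Optn, called lower above, was counted in the list of the lysosome and autophagy and not in this one.

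Several lists had few calls against the 12% of all genes. Of cell cycle and replication genes none of 71 tested members fell and none rose (0% called, median difference -0.03, but 0.26 after centring, 0.43 under quantile normalisation and 0.26 at equal spread), with 3 lower and 6 higher at an unadjusted p under 0.05 in the same limma fit. None fell and 1 rose once animals were centred, and 1 was called without hypoxia animal 3 or 6. Members called were 2 lower and 9 higher at equal spread and 1 lower and 12 higher under quantile normalisation. The members closest to the threshold were the D cyclin Ccnd3 at -1.29 (SE 0.46, adjusted p = 0.0672) and the spindle kinase Ttk at 1.34 (SE 0.51, adjusted p = 0.0892). Ccnd3 was -0.65 without hypoxia animal 3, -0.57 without the pair of least filled hypoxia arrays and -2.26 on first arrays, and Ttk was 2.83 under quantile normalisation. Of ubiquitin-conjugating enzymes 1 of 30 tested members fell and none rose (3.33% called, median difference -0.25, but 0.05 after centring). With centred animals no member was called, and none were called without normal animal 1, 2, 5 or 6. Of nuclear pore and transport genes 2 of 48 tested members fell and none rose (4.17% called, median difference -0.18, but 0.12 after centring, 0.10 under quantile normalisation and 0.03 at equal spread). After centring 1 fell and 3 rose, and 1 to 4 were called without normal animal 2 or hypoxia animal 1. The count was 2 lower and 3 higher at equal spread and 1 lower and 4 higher under quantile normalisation. Ipo13, an importin, fell by 1.51 (SE 0.23, adjusted p = 0.000304). Of neurotrophic factors and receptors 1 of 18 tested members fell and none rose (5.56% called, median difference -0.66), with the fall in Gfra2. Centring left no member called, and 0 to 2 were called without normal animal 1 to 6 in turn or hypoxia animal 3, 5 or 6. Members called were 4 lower and none higher at equal spread and 2 lower and none higher under quantile normalisation. Of olfactory and vomeronasal receptors, of which the array annotation holds 1172, 14 of 240 tested members fell and none rose (5.83% called, median difference -0.44). With centred animals 6 fell and none rose, and 8 to 9 were called without normal animal 1, 2, 3 or 5. Or51f4 lay between 2.08 and 3.98 in normal animals (median 3.58) and between -2.25 and 1.19 in hypoxia animals (median -0.11, 5 animals), a difference of -3.70 (SE 0.51, adjusted p = 0.000218), and Or4f56 differed by -3.81 (SE 0.60, adjusted p = 0.000499), Or10d1g by -3.90 (SE 0.66, adjusted p = 0.000658) and Or5b123b by -3.99 (SE 0.64, adjusted p = 0.000491). These receptors belong to a large family of related genes, and the identity of what a probe measured is uncertain. The other 48 lists of pathways and families, whose shares were between 7.14% and 17.2%, are not described one by one. They include collagens and laminins, sarcomere genes, MAP kinases, Wnt, TGF-beta and Notch signalling, potassium channels, solute carriers and vesicle traffic.

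Markers of cell types were counted in the same way. Of ventricular muscle markers 1 of 14 tested members fell and none rose (7.14% called, median difference -0.09, but 0.21 after centring). 1 fell and 1 rose once animals were centred. The count was 6 lower and none higher at equal spread (median -1.07) and 1 lower and 1 higher under quantile normalisation. The fall was in Ryr2, and the mean log2 ratio of the list was 4.18 to 4.91 in normal and 3.89 to 4.64 in hypoxia animals. The labelled tissue thus held its defining markers at levels far above the reference. Of atrial markers 3 of 8 tested members fell and none rose (37.5% called, median difference -0.52). Centred values gave 1 lower and none higher, and 1 was called without normal animal 2, 3, 4 or 6 or hypoxia animal 2, 4 or 5. The 3 were Dkk3, Gja5 and Myl7. The mean level of all 8 tested atrial markers was 1.88 to 3.67 in normal and 1.49 to 2.32 in hypoxia animals. Myl7 differed by 0.23 where values in all animals were required. Of endothelial markers 2 of 17 tested members fell and 2 rose (23.5% called, median difference -0.39). After centring 2 fell and 2 rose. Calls numbered 7 lower and none higher at equal spread (median -0.90) and 4 lower and 1 higher under quantile normalisation. Fabp4 and Rgcc were higher and Aplnr and Eng lower. Fabp4, a fatty acid carrier of capillary and fat cells, rose by 0.98 (SE 0.21, adjusted p = 0.00451), but was -0.08 at equal spread and not called on first arrays. Of adipocyte markers none of 11 tested members fell and 2 rose (18.2% called, median difference -0.36). Centring left none lower and 2 higher. The count was none lower and 1 higher at equal spread. The called members were Fabp4 and Lep. Lep, the hormone leptin, had log2 ratios of 0.28 to 0.86 (median 0.47) in normal and of 1.03 to 3.38 (median 1.71) in hypoxia animals, a difference of 1.41 (SE 0.37, adjusted p = 0.0152) with no overlap that was lost without hypoxia animals 5 and 6 and on first arrays. The mean level of the adipocyte list was 0.48 to 2.96 in normal and 0.71 to 1.34 in hypoxia animals. Of fibroblast markers 1 of 12 tested members fell and none rose (8.33% called, median difference 0.09). With centred animals 1 fell and 1 rose. Members called were 1 lower and 1 higher at equal spread and 1 lower and 1 higher under quantile normalisation (median 0.19). The fall was in Vim, with a difference of -1.14 (SE 0.25, adjusted p = 0.00509). Of smooth muscle markers 1 of 12 tested members fell and none rose (8.33% called, median difference -0.32), the fall being Smtn. None fell and 1 rose once animals were centred, and 0 to 2 were called without normal animal 1, 2 or 5 or hypoxia animal 2, 3 or 6. Calls numbered 4 lower and none higher at equal spread (median -0.61). Of macrophage markers 1 of 12 tested members fell and none rose (8.33% called, median difference -0.19, but 0.11 after centring), the fall being the complement gene C1qc. No member was called after centring, and none were called without normal animal 1, 2, 3 or 6 or hypoxia animal 2, 5 or 6. The count was 2 lower and none higher at equal spread (median -0.47). Of mesothelial markers 1 of 6 tested members fell and none rose (16.7% called, median difference -0.71, but 0.01 under quantile normalisation). Centring left no member called. Members called were none lower and none higher at equal spread (median -0.29) and none lower and none higher under quantile normalisation. This was Krt18, at 0.17 under quantile normalisation. Of erythroid markers 1 of 8 tested members fell and none rose (12.5% called, median difference -0.30), the fall being the anion exchanger Slc4a1. With centred animals no member was called, and none were called without hypoxia animal 4. Calls numbered 2 lower and none higher at equal spread (median -0.66). Of Schwann cell and neuronal markers 1 of 11 tested members fell and none rose (9.09% called, median difference -0.52), the fall being Gap43. No member was called after centring, and 2 to 3 were called without hypoxia animal 1 or 6. No member was called among 9 tested markers of T and NK cells, 3 of B cells, 8 of neutrophils and mast cells, 5 of platelets and 8 of skeletal muscle in the limma fit. At an unadjusted p under 0.05, 1 lower and 0 higher were found among those of T and NK cells, 0 lower and 0 higher among those of B cells, 2 lower and 0 higher among those of neutrophils and mast cells, 0 lower and 0 higher among those of platelets and 0 lower and 1 higher among those of skeletal muscle. Under quantile normalisation 2 markers of T and NK cells and 1 of skeletal muscle were called higher, and at equal spread 1 of neutrophils and mast cells lower. The part of any marker in the results above was not tested.

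Falls with the lowest adjusted p, beside that of Mbd3, were in the following genes. Ubxn1, a ubiquitin-binding partner of the p97 ATPase, had the lowest adjusted p of all genes. Ubxn1 lay between 0.49 and 0.77 in normal animals (median 0.62) and between -0.92 and -0.76 in hypoxia animals (median -0.84), a difference of -1.48 (SE 0.13, adjusted p = 4.48e-07). Spg7, paraplegin, a subunit of the protease that degrades proteins of the inner mitochondrial membrane, spanned -2.69 to -1.64 (median -2.18, 5 animals) in hypoxia animals against -0.09 to 1.20 (median 0.72) in normal animals, a difference of -2.82 (SE 0.25, adjusted p = 5.96e-07). Afg3l1, of the same protease family, fell by 1.61 (SE 0.20, adjusted p = 5.26e-05). Myh14, a non-muscle myosin heavy chain, had log2 ratios of 1.22 to 2.08 (median 1.61) in normal and of -1.35 to 0.05 (median -0.99) in hypoxia animals, a difference of -2.51 (SE 0.24, adjusted p = 1.89e-06). Ehbp1l1 fell by 1.61 (SE 0.18, adjusted p = 1.34e-05). Eml2, which binds microtubules, differed by -2.46 (SE 0.27, adjusted p = 1.09e-05), Tns1, a protein of focal adhesions, by -1.66 (SE 0.19, adjusted p = 1.58e-05), and Arpc1b, a subunit of the Arp2/3 actin nucleator, by -1.43 (SE 0.18, adjusted p = 3.34e-05), the last at -0.78 under quantile normalisation. Gorasp1, which stacks the Golgi, differed by -1.50 (SE 0.18, adjusted p = 3.34e-05), Mvp, the major vault protein, by -1.83 (SE 0.23, adjusted p = 5.26e-05), and Bst2, the interferon-induced tetherin, by -2.09 (SE 0.24, adjusted p = 1.58e-05). In each of these genes every hypoxia animal with a value lay below every normal one.

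Among the largest falls was Ppargc1b, a coactivator of genes for mitochondria, with -3.62 (SE 0.47, adjusted p = 6.04e-05). Ryr2, the calcium release channel, and the urea transporter Slc14a1 had values in 4 hypoxia animals and differed by -4.33 (SE 0.80, adjusted p = 0.00167) and by -4.36 (SE 0.80, adjusted p = 0.00171). Selenop, which carries selenium to tissues, lay between 1.83 and 3.29 in normal animals (median 2.16) and between -6.93 and 0.30 in hypoxia animals (median -0.93, 5 animals), a difference of -4.14 (SE 0.98, adjusted p = 0.00861). Msc, the muscle repressor musculin, spanned -2.51 to 0.15 (median -1.52, 5 animals) in hypoxia animals against 1.49 to 3.11 (median 2.39) in normal animals, a difference of -3.48 (SE 0.54, adjusted p = 0.000452). Both genes had values in 5 hypoxia animals, none of them within the normal range, and hypoxia animal 5 lay far below the others in Selenop. Among the largest rises outside the stable ones, Sall1, a zinc finger factor of kidney and limb development, differed by 2.72 (SE 0.73, adjusted p = 0.0198), lost without normal animal 2 and without hypoxia animals 5 and 6 together. Homez rose by 2.69 (SE 0.79, adjusted p = 0.0364), Serpini2 by 2.95 (SE 0.90, adjusted p = 0.04) and Stra6l by 2.84 (SE 0.90, adjusted p = 0.0476). Homez was lost in 12 of the 27 alternatives (among them without normal animal 3, 4, 5 or 6 or hypoxia animal 2, 3 or 5), Serpini2 lost in 13 of the 27 alternatives (among them without normal animal 1, 2, 5 or 6 or hypoxia animal 1, 3 or 4) and at 1.75 without the pair of least filled hypoxia arrays, and Stra6l lost in 15 of the 27 alternatives (among them without normal animal 1, 3, 4, 5 or 6 or hypoxia animal 1, 2, 3 or 6).

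For 8 genes described above, chosen after their values were seen, the groups with SU5416 were set beside hypoxia in the same fit. These contrasts use the same hypoxia animals. In them 11.2% of all genes were called between SuHx and hypoxia and 16.4% between SuHx with carvedilol and hypoxia. Spg7 was higher in SuHx than in hypoxia, by 3.09 (SE 0.25, adjusted p = 2.12e-07), and in SuHx with carvedilol by 3.30 (SE 0.25, adjusted p = 6.07e-08). Ubxn1 was higher by 1.19 (SE 0.13, adjusted p = 4.27e-06) and 1.51 (SE 0.13, adjusted p = 9.99e-08) and Mbd3 by 1.83 (SE 0.21, adjusted p = 9.82e-06) and 2.01 (SE 0.21, adjusted p = 1.41e-06). Nck1 was lower in SuHx, by -0.83 (SE 0.16, adjusted p = 0.00152), and with carvedilol, by -0.85 (SE 0.16, adjusted p = 0.000669). Ptges differed by -1.79 (SE 0.47, adjusted p = 0.0159) in SuHx, and by -1.01 (SE 0.47, adjusted p = 0.149), not called, with carvedilol. For Cebpd the SuHx difference was 0.40 (SE 0.25, adjusted p = 0.329) and for Gabrp it was -1.46 (SE 0.56, adjusted p = 0.0953), both not called. Slc6a8 was higher in both, by 1.28 (SE 0.23, adjusted p = 0.00102) and 1.35 (SE 0.23, adjusted p = 0.000347).

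The differences were also set against the level of a gene relative to the reference. Genes were cut into 5 equal groups by their mean log2 ratio in SuHx animals, which are in neither group compared. These animals share the reference with both groups and entered the filter and the estimate of spread, so the cut is not independent of the calls. From the lowest to the highest group the median difference was -0.14, -0.34, -0.42, -0.46 and -0.54. The share of lower genes was 3.99%, 8.7%, 11.9%, 14.3% and 17.2%, and the share of higher genes 1.53%, 0.87%, 0.46%, 0.563% and 0.767%. In the highest group the median log2 ratio per animal was 1.80 (SD 0.15) in normal and 1.34 (SD 0.10) in hypoxia animals. The lists above differed in level too. Mean log2 ratios in normal animals were 2.21 to 2.87 for fatty acid oxidation (19.4% lower) and 2.11 to 2.64 for the respiratory chain (13.2% lower). They were 0.04 to 0.74 for amino acid metabolism (22.5% lower) and -2.02 to -1.68 for cell cycle genes (none lower). The part of level in the shares of lists was not tested. Promoter base composition gave a smaller gradient. Of 5 groups of genes by GC content in the 250 bases before the start, 9.13% were lower in the group with the lowest content and 12.5% in that with the highest.

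**Figure D4:**
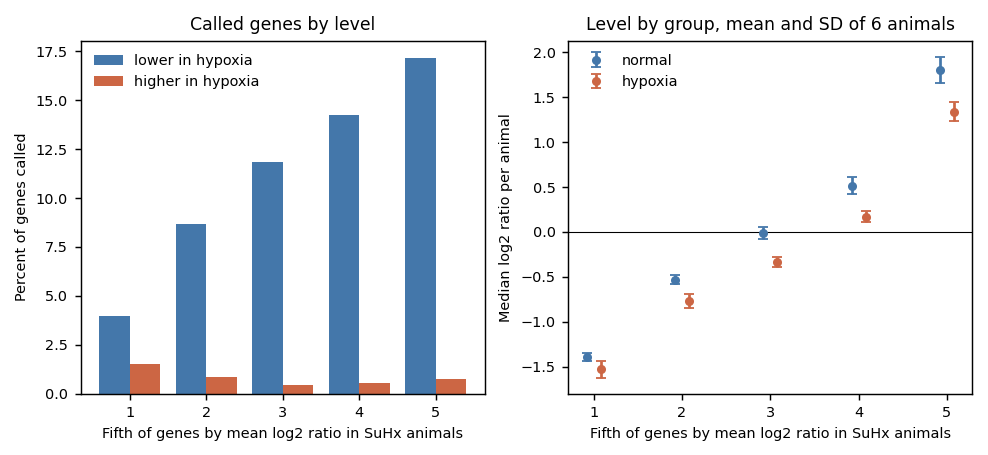
Genes in 5 equal groups by mean log2 ratio in SuHx animals (x axes). Left, percent of genes called lower (blue) and higher (orange) in hypoxia; right, the median log2 ratio per animal of each group of genes, as mean and SD of 6 normal (blue) and 6 hypoxia animals (orange). Lower calls go from 3.99% in the lowest to 17.2% in the highest group.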

How the data were processed

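Ventricular RNA was labelled with Cy5 and a common rat reference RNA with Cy3 on 2-colour 44k Agilent arrays, per the labels' protocols. The deposited values are log2 ratios of sample over reference that the authors normalised within each array by lowess, per the series' design text. A file title calls them log10, but their range of -13.6 to 14.0 is wider than log10 ratios of scanner intensities allow, so they were read as log2. Of the cells, 34.9% were empty, and no source used here gives the reason. Spot intensities were not analysed here, so the number of arrays limits the precision. Arrays of an animal were averaged first. Probes with values in at least 4 animals in each of the 4 groups were kept. The kept probes of a gene were then averaged, which gave 9775 tested genes. All 24 animals were fitted with limma 3.58.1 in R 4.3.3 (means per group, 20 residual degrees of freedom, median SE of a difference 0.43). The fit takes 1 spread per gene for all 4 groups, although the median SD of a gene was 0.82 in hypoxia and 0.42 in normal animals. For genes that varied widely in hypoxia animals, the SE and adjusted p can therefore be too small. Abcb8, for example, had an SD of 2.24 in hypoxia and 0.63 in normal animals. An adjusted p is limma's after Benjamini-Hochberg adjustment over all tested genes, and a gene was called at a value under 0.05. Array measures were compared with exact permutation tests in SciPy 1.17.1, adjusted over 5 measures, of which the correlation is given without a p-value. Where no source says that the animals were raised or processed separately, p-values measure the spread between these animals. The fit was also run on simulated data with equal spread in all groups, no empty values and no shift of all genes. The real data differ in each of these, so that run does not show how the fit performs on them.

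The comparison, the 95 gene lists and the 15 marker lists were chosen with earlier results of these data known, and 1 further list is not reported here. A list was described where at least 8 members were tested and its share called was at least 1.5 times or at most 0.5 times that of all genes, and for all lists on hypoxia, fuel and transcription and all markers. Genes with values are a selection from the largest and most certain differences and up to 4 called members of each such list. Those that kept their call in every alternative that tested them came first. The alternatives were other normalisations, filters, probe rules, array choices, weights, covariates and each animal left out in turn. A further 2 settings, not among the 27, were added after the data were seen. Animals of equal number in both groups did not deviate together (correlations of -0.09 to 0.08), so numbers were not taken as pairs. Promoters were matched by symbol for 8093 of the tested genes. Proteins and genome sequence were not used here.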

Additional observations from a re-analysis of the deposited data

Results flagged for a closer look

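Among the 46 genes with values per animal and 4 array measures, 1 animal stood far from the rest of its group in 5 of 100 groups of values, about the share that chance gives (1 in 20). Pla2g5 was 6.31 in normal animal 6 and 3.73 to 4.46 in the other normal animals. Abca8a was 4.91 in the same animal and 3.47 to 3.99 in the others. Selenop was -6.93 in hypoxia animal 5 against -1.03 to 0.30 in the other 4 measured hypoxia animals. Got1 was -1.99 in hypoxia animal 4 against -0.15 to 0.77, and Ppp6r2 was -1.47 in hypoxia animal 6 against -0.32 to 0.09. All 5 genes kept their call when that animal was left out.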

How the results depend on the processing

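The count of called genes, 1177, was 1790 with arrays scaled to equal spread, 623 after centring, 654 when only hypoxia and normal animals were fitted and 745 of 12815 tested genes with values in 2 animals per group. Higher genes, 82, numbered 269 under quantile normalisation, 194 at equal spread, 238 after centring, 124 with the least filled pair of hypoxia arrays left out and 54 with animal numbers over 100 as a covariate. Lower genes, 1095, numbered 385 after centring, 679 with values in 2 animals per group and 592 with only the 2 groups fitted. On probes with a value on every array, a setting added after the data were seen, they numbered 695 of 3232. Leaving out 1 animal gave 772 (without normal animal 2) to 1178 called genes, 49 to 91 higher and 721 to 1090 lower ones. With the animal number as a block, for which no source gives a shared origin, 1084 genes were called, 80 of them higher. The cause of these shifts was not tested.

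Of 196 called genes named by the rule, 89 kept their call in every alternative that tested them. The call was lost by 68 after centring, 58 with only the 2 groups fitted, 44 on first arrays, 14 under quantile normalisation and 8 to 25 without 1 animal. The direction turned in 4 genes: Cpt1b (0.76 with the highest-ratio probe), Fabp4 (-0.08 at equal spread), Krt18 (0.17 under quantile normalisation) and Myl7 (0.23 with values in all animals, with the highest-ratio probe and on probes with a value on every array). Genes that kept their call but moved by over 1.5 times on first arrays were Optn (-2.98), Zfp106 (-2.68), Sirt2 (-2.26), Egln2 (-1.89) and Prkag1 (-1.67), and with the highest-ratio probe Hspd1 (-0.76) and Tns1 (-1.07). At equal spread Arpc1b was -0.92, and Vim was -0.73 under quantile normalisation. Empty cells limit what could be tested: 14861 genes had any value, and 1070 had values in 4 or more normal but fewer hypoxia animals, against 459 the other way round. A ratio to reference RNA carries no absolute level, and genes without a probe measured in 4 animals of every group were not tested.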

Other observations

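Of 23 tested rat RT1 genes, the histocompatibility genes that present peptides to T cells, 10 fell and none rose, against 11.2% lower of all genes, a tally made after their values were seen. RT1-CE7 differed by -1.73 (SE 0.24, adjusted p = 0.000127) without overlap, RT1-T18 by -1.41 (SE 0.32, adjusted p = 0.006), RT1-CE2 by -1.22 (SE 0.22, adjusted p = 0.00128), RT1-CE3 by -1.16 (SE 0.24, adjusted p = 0.00293) and RT1-A2 by -1.04 (SE 0.20, adjusted p = 0.00164). Each of these kept its call in every alternative that tested it. These genes are near-identical copies whose probes may share signal, so single members are uncertain. In the interferon and antigen presentation list 7 of 42 tested members fell (16.7% called), among them the peptide transporter Tap2 at -1.22 (SE 0.29, adjusted p = 0.0087), a call lost in 3 of the 27 alternatives. Ifnar1, a chain of the type I interferon receptor, fell by 2.37 (SE 0.46, adjusted p = 0.00201) but lost its call on first arrays.

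Of proteases inside mitochondria, also chosen after their values were seen, some were called and others not. Beside Spg7 and Afg3l1, their partner Afg3l2 differed by -0.64 (SE 0.18, adjusted p = 0.0241), a call lost in 9 of the 27 alternatives (among them without normal animal 1 or 2), and the matrix protease Lonp1 by -1.27 (SE 0.25, adjusted p = 0.00235), lost with the highest-ratio probe. Not called were the intermembrane proteases Yme1l1 at 0.38 (SE 0.30, adjusted p = 0.45) and Htra2 at 0.10 (SE 0.15, adjusted p = 0.7), the matrix unfoldase Clpx at 0.02 (SE 0.26, adjusted p = 0.971) and the prohibitins Phb1 at -0.16 (SE 0.40, adjusted p = 0.835) and Phb2 at -0.38 (SE 0.35, adjusted p = 0.514). In the antioxidant list 3 of 51 tested members fell and 1 rose (7.84% called). Keap1, which holds the antioxidant factor NRF2 in check, fell by 1.85 (SE 0.29, adjusted p = 0.000462), and the selenoproteins Selenop and Selenow moved in opposite directions. Among genes with too few values to be tested, 18 had a value in all 6 normal and in at most 1 hypoxia animal, and 1 the other way round.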
